A study of Mus musculus with 36 samples.

Results

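Cdh1, Cdh3, Dsg2, Dsg3, Dsc2, Dsc3, Dsp, Jup, Pkp1 and Perp encode cadherins and proteins of the desmosome. They were chosen by gene name for their known function, and each was present in both count tables, so the set held 10 of 20181 genes in the Lrig1 GL table and 10 of 22587 genes in the Lgr5 GL table. Transcripts were counted in 36 mini-bulk RNA-seq libraries of sorted tail epidermal cells, with 3 libraries at each of 6 time points in each of 2 genetically labelled (GL) populations. Lrig1 GL cells came from Lrig1-EGFP-ires-CreERT2 mice and Lgr5 GL cells from Lgr5-EGFP-ires-CreERT2 mice, each crossed with Rosa26-fl/STOP/fl-tdTomato. All were young adults of both sexes, and all groups, 0w included, had received a topical dose of hydroxytamoxifen on tail skin, which switches tdTomato on for good in cells that use the Lrig1 or the Lgr5 gene and in all their progeny. The Lrig1 gene marks the junctional zone of the hair follicle (HF) and the Lgr5 gene its lower part. Cells were taken before injury (0w), then 1 week (1w pw1), 2 weeks (2w pw1), 4 weeks (4w pw1) and 8 weeks (8w pw1) after the first full-thickness wound, and 1 week after the second wound (1w pw2), which was placed over the first at 8 weeks, so this last group is at 9 weeks. The sorted tdTomato+ cells came from a zone holding the wound bed and distal HFs together, later groups had no unwounded mice of their age, and a population was always 1 count table, so age and time after injury, and population and table, cannot be told apart.

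Desmosomes are spot-like junctions that hold keratinocytes together. In them the desmogleins (Dsg) and desmocollins (Dsc), which are cadherins, bind between neighbouring cells, while plakoglobin (Jup) and plakophilins (Pkp) link their tails to desmoplakin (Dsp), which in turn holds the keratin filaments. The classical cadherins Cdh1 (E-cadherin) and Cdh3 (P-cadherin) form the adherens junction, where plakoglobin can also bind, and connect to actin. In skin, Dsg3 and Dsc3 are used mostly by basal cells and Cdh3 by basal and follicle cells, and wounded epidermis loosens these junctions while cells move and rebuilds them as the sheet closes.

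The upstream sequences of Dsp and Jup are shown first, the only genes of the set with a promoter in the source used. Whether their motifs bear on their values was not tested. RefSeq on GRCm38.p6 held the promoters of 2 of the 10 genes in the table used, and the 250 bases before each start are written 5' to 3' on the gene's strand. Capitals mark GC boxes, the letters GGGCGG on either strand.
Dsp, chr13:38151044-38151293, plus strand: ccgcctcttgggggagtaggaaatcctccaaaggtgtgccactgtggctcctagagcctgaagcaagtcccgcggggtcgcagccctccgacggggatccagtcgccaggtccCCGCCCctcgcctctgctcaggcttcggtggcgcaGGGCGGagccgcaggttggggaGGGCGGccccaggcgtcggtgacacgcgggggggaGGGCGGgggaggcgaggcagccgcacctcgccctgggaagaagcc
Jup, chr11:100397791-100398040, minus strand: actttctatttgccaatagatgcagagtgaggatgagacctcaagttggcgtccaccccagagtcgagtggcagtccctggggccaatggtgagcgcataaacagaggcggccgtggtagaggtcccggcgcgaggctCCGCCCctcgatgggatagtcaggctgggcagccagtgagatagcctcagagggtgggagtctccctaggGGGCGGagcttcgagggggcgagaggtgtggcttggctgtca
The Dsp stretch held 4 GC boxes, with first bases 137, 102, 80 and 45 bases before the start, and the Jup stretch held 2, at 112 and 42 bases. A GC box was present in 32.7% of 32851 promoters of the same length. Neither stretch held an E-box (CANNTG, in 66.2% of promoters; its form CAGGTG in 17.2%), an AP-1 motif (TGANTCA, in 6.75%) or a TATA box (TATAAA, in 12.4%). The CCAAT box, in 33.8% of promoters, was absent from the Dsp stretch and occurred 2 times in the Jup stretch, 238 and 167 bases before the start. All motifs were searched on both strands, CAGGTG is contained in CANNTG, and no other pair of motifs searched shares its letters. The GC content of these bases was 72.4% for Dsp and 62.0% for Jup, against a median of 52.4% over all promoters.

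All 10 genes passed the filter on low counts in both tables. In GRCm38 coordinates with GENCODE release M21 models, Cdh3 (chromosome 8, 106510891 to 106557297) and Cdh1 (chromosome 8, 106603351 to 106670246) lie next to each other on the plus strand. Dsc3 (19960930 to 20002351), Dsc2 (20030633 to 20059554), Dsg3 (20510274 to 20547459) and Dsg2 (20558074 to 20604521) lie on chromosome 18. Dsp lies on chromosome 13 (38151294 to 38198577), Jup on chromosome 11 (100368958 to 100397763), Pkp1 on chromosome 1 (135871395 to 135919207) and Perp on chromosome 10 (18845020 to 18857073). All are protein-coding, and counts are over their exons. Exons of Dsp overlap those of an opposite-strand model, Gm10129, by 499 bases and exons of Dsg2 those of Gm16090 by 330 bases. The counting options that the authors list set no strand, so reads in the shared bases cannot be told apart between the genes. Gm10129 reached at most 13 counts in a Lgr5 GL library and has no row in the Lrig1 GL table used.

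The Lrig1 GL libraries held 765252 to 3365666 counts each and the Lgr5 GL libraries 1297798 to 6960537. Levels are given as CPM, counts relative to the library total with TMM scaling, and 3 counts, the floor taken for detection, were worth 1.01 to 3.37 CPM and 0.388 to 2.91 CPM. The 10 genes together took 1.45% to 2.55% of the counts of a Lrig1 GL library and 0.566% to 2.23% of a Lgr5 GL library, where the gene model Gm12415 alone took 12.04% to 52.1%. Basal keratinocyte markers (6 of 6 detected at every time point) summed to at least 10431 CPM in Lrig1 GL and 6992 CPM in Lgr5 GL libraries. Immune markers summed to at most 33.3 CPM and endothelial markers to at most 19.8 CPM, with Cd3e, Cd3g and Lyz2 at 0 in all Lrig1 GL libraries. Fibroblast markers summed to at most 89.6 CPM in Lrig1 GL and 378 CPM in Lgr5 GL libraries. Mitochondrial transcripts took 12.8% ± 1.77 (SD, n = 3) of counts in Lrig1 GL cells at 8w pw1 against 4.58% ± 1.24 at 0w and 7.03% ± 1.93 at 1w pw2, and 1.19% to 3.64% throughout Lgr5 GL cells. The libraries of a group were taken as separate mice, as the study describes its replicates for these data, and the p-values below rest on the spread between them. Amplified reads without molecular identifiers are not independent molecules, so counting limits cover counting error only.

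Before injury, Perp and Jup were the most abundant of the set in both populations and Dsc2 and Dsg2 the least, when CPM was divided by exon length. Perp, a membrane protein that desmosomes need in stratified epithelia, stood at 2879 ± 376 CPM per kb (SD, n = 3) among Lrig1 GL and 2309 ± 113 among Lgr5 GL libraries. Jup followed at 1045 ± 423 and 502 ± 173 CPM per kb, and Dsp at 207 ± 72.2 and 179 ± 31.5 CPM per kb. For Lrig1 GL cells Dsc3 (135 ± 12.7), Cdh3 (131 ± 22.2), Pkp1 (105 ± 53.7) and Dsg3 (101 ± 25.2) lay within their spread of each other, above Cdh1 (57.5 ± 31.8), Dsg2 (13.6 ± 6.07) and Dsc2 (2.94 ± 2.69 CPM per kb). In Lgr5 GL cells Dsg3, Dsc3, Cdh3 and Pkp1 lay between 99.5 and 108 CPM per kb, again within their spread, and Cdh1 (28.1 ± 3.30), Dsg2 (5.996 ± 1.03) and Dsc2 (3.76 ± 1.63) had the same order below them.

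**Figure D1:**
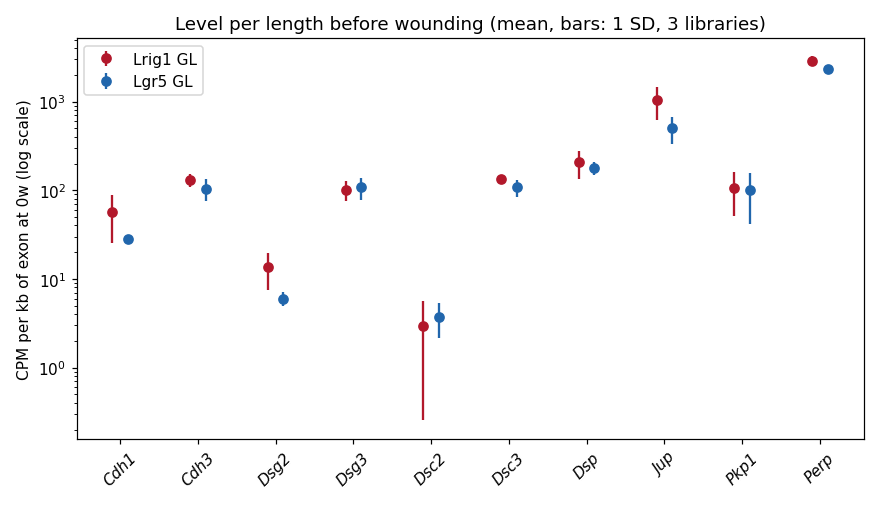
Level of each gene per kb of exon at 0w (CPM per kb, log scale) in Lrig1 GL and Lgr5 GL cells; points are means and bars 1 SD of 3 libraries. Perp and Jup lie above the other 8 genes in each population, and Dsg2 and Dsc2 lie lowest, at 13.6 CPM per kb or less.

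In the fit of both populations together, 0 of 10 genes differed between Lrig1 GL and Lgr5 GL cells at 0w (edgeR quasi-likelihood test, Benjamini-Hochberg adjusted p under 0.05), where 3.12% of 13980 genes did. The count was also 0 with edgeR's likelihood ratio test, DESeq2 and limma-voom, and 1 gene, Jup, had an unadjusted p under 0.05 (17.1% of all genes did). Jup was 0.71 ± 0.32 (log2, SE) higher in Lrig1 GL cells (adjusted p = 0.255), and Cdh1 was 0.67 ± 0.37 higher (adjusted p = 0.366). With each library's trend on GC content removed, Jup passed the test.

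After injury, 2 of 10 genes, Dsp and Dsc3, were called across the time course in Lrig1 GL cells, and 0 of 10 in Lgr5 GL cells. A call here takes an adjusted p under 0.05 together with a log2 change from 0w larger than 1, up or down, in at least 1 group, and 1.63% of 14306 Lrig1 GL genes and 1.13% of 18025 Lgr5 GL genes were called. At an unadjusted p under 0.05 the counts were 8 of 10 (20.5% of all genes) and 5 of 10 (16.9%). By single time points in Lrig1 GL cells, the calls were 0 at 1w pw1 (0.217% of all genes), 0 at 2w pw1 (0%) and 0 at 4w pw1 (0.0419%), then 1 at 8w pw1 (2.82%) and 2 at 1w pw2 (1.23%), all of them higher (1.52% and 0.993% of all genes were called higher at these times). By the adjusted p alone, 3 genes passed at 8w pw1 (2.86%) and 3 at 1w pw2 (1.24%), and at an unadjusted p under 0.05 the counts from 1w pw1 to 1w pw2 were 2 (11% of all genes), 0 (10.5%), 0 (8.37%), 6 (22.9%) and 7 (18.5%). DESeq2, limma-voom and the likelihood ratio test also gave 0 up to 4w pw1. The 5 comparisons share the 0w libraries. At 8w pw1 the median log2 change of the 10 genes was 0.68 against -0.01 over all genes tested, and at 1w pw2 it was 0.78 against -0.06. At each of these times 7 of 10 changes were above 0, against 49.5% and 47.9% of all genes. The changes shifted with each library's trend on GC content removed. In the order named at the start, from Cdh1 to Perp, they were then as follows. At 8w pw1 they were 1.14, -0.74, 0.94, -0.60, -0.28, 0.02, 2.44, -0.39, 0.05 and 0.60. At 1w pw2 they were 1.30, -0.75, 0.35, -0.47, 2.38, 0.36, 2.12, -0.64, 0.30 and 0.72. Their median thus lay between 0.02 and 0.05 at 8w pw1, against 0.68 with no trend removed, and between 0.35 and 0.36 at 1w pw2, against 0.78. With surrogate variables in the design, which the study's methods name without their number, no gene of the set was called in either population.

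**Figure D2:**
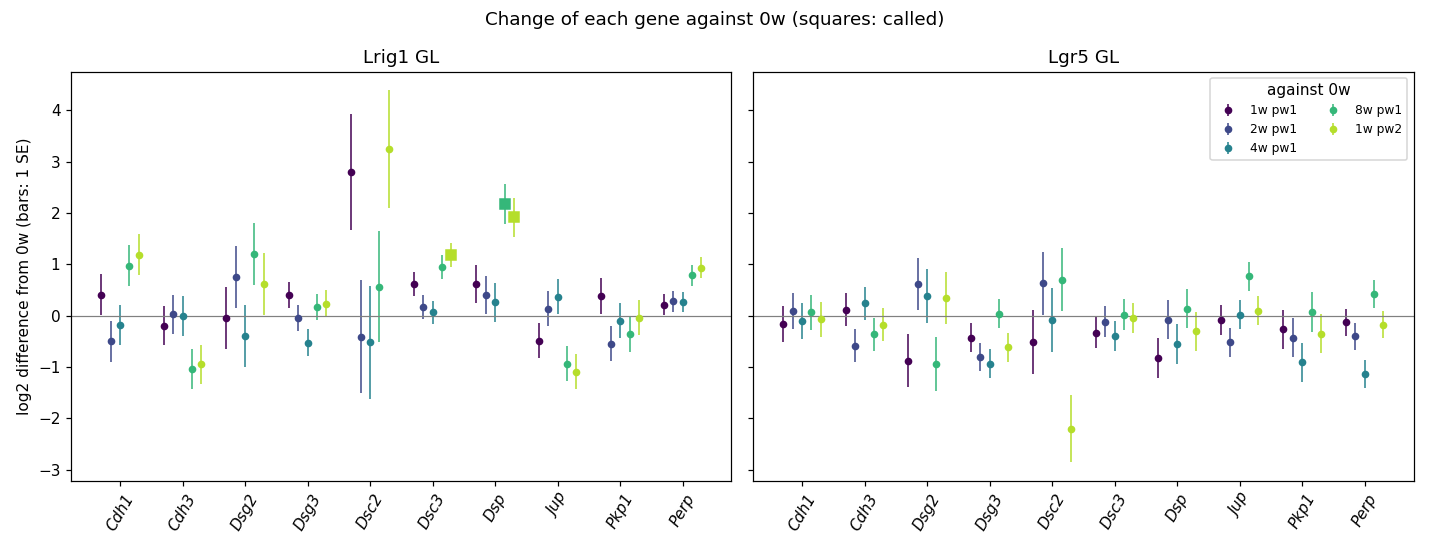
Log2 change of each gene against 0w at 5 time points (colours; bars are 1 SE from edgeR) in Lrig1 GL (left) and Lgr5 GL cells (right); squares mark calls. The called values are Dsp at 8w pw1 (2.18) and 1w pw2 (1.92) and Dsc3 at 1w pw2 (1.19), all in Lrig1 GL cells.

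Dsp, which encodes the desmoplakin that anchors keratin filaments, had the smallest adjusted p of the set over the Lrig1 GL time course. In Lrig1 GL cells the 3 libraries stood at 1287, 2681 and 2020 CPM at 0w, at 3909, 3107 and 2141 at 1w pw1, at 2154, 1756 and 4002 at 2w pw1 and at 3033, 1467 and 2664 at 4w pw1. They then stood at 10913, 6516 and 9728 CPM at 8w pw1 and at 4975, 8953 and 8671 at 1w pw2. All 6 libraries of these last groups lay above all 12 earlier ones. The share of all genes separated in this way was not counted. Against 0w alone, 14.8% of all genes lay higher without overlap at 8w pw1 and 13.9% at 1w pw2. Dsp rose 4.53-fold at 8w pw1 (log2 2.18 ± 0.39, adjusted p = 0.016) and 3.77-fold at 1w pw2 (log2 1.92 ± 0.39, adjusted p = 0.0261), and its adjusted p over the time course was 0.0161. The Lgr5 GL group means lay between 978 ± 89.9 CPM at 1w pw1 and 1900 ± 1059 at 8w pw1, against 1728 ± 304 at 0w. The Lgr5 GL libraries at 1w pw1 (924, 928 and 1082 CPM) lay below all 3 at 0w (1715, 2039 and 1431 CPM), with a log2 difference of -0.82 ± 0.38 and an adjusted p of 0.26. The Dsp call over the Lrig1 GL time course was kept when each of the 18 libraries was left out in turn (adjusted p 0.00747 to 0.0496). The call at 8w pw1 was lost without 0w replicate 1 (log2 1.95, adjusted p = 0.0600) or 8w pw1 replicate a (log2 2.03, adjusted p = 0.0574). The call at 1w pw2 was lost without 0w replicate 1 (log2 1.69, adjusted p = 0.0895), 0w replicate 3 (1.93, 0.0562), 1w pw2 replicate 2 (1.77, 0.124) or 1w pw2 replicate 3 (1.77, 0.0840). With surrogate variables the log2 change was 1.11 (adjusted p = 0.174, 5 variables) or 0.94 (adjusted p = 0.645, 2 variables) at 8w pw1, and 1.06 or 1.01 at 1w pw2 (adjusted p = 0.148 and 0.332).

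Jup, whose product plakoglobin sits in desmosomes and adherens junctions, went the other way in values. It stood in Lrig1 GL cells at 5614, 4738 and 9830 CPM at 0w, 5089, 3946 and 5343 at 1w pw1, 7499, 9275 and 5362 at 2w pw1 and 8183, 12523 and 5383 at 4w pw1. At 8w pw1 it stood at 2610, 3836 and 4115 CPM and at 1w pw2 at 4242, 2270 and 2976, below all 3 libraries of 0w. The log2 differences from 0w were -0.93 ± 0.34 (adjusted p = 0.119) and -1.09 ± 0.34 (adjusted p = 0.111), which did not pass, and the adjusted p over the time course was 0.0662. DESeq2 and the likelihood ratio test called Jup over the Lrig1 GL time course (13.1% and 14.0% of all genes), and DESeq2 also at 1w pw2 (7.28%). Over the time course, edgeR's quasi-likelihood test called Jup without 2w pw1 replicate c (0.0442) or 4w pw1 replicate c (0.0401). The highest Jup values of Lgr5 GL cells came at 8w pw1 (4314, 5931 and 6260 CPM against 3574, 4136 and 1985 at 0w), with a log2 difference of 0.77 ± 0.29 and an adjusted p of 0.757.

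The ratio of Dsp to Jup counts within a library does not depend on how libraries are scaled, but it can carry a library's trends on GC content and length. In Lrig1 GL libraries it was 0.229, 0.566 and 0.206 at 0w and stayed at 0.788 or less in all 12 libraries up to 4w pw1. It was 4.18, 1.70 and 2.36 at 8w pw1 and 1.17, 3.94 and 2.91 at 1w pw2, so that Dsp counts exceeded Jup counts in 6 of 6 libraries of these groups. A gene whose values rose is set here against one whose values fell, so the ratio is not separate evidence, and no share over other gene pairs was taken. Other ratios taken at 0w and 8w pw1 were 0.794 to 1.52 and 1.45 to 2.12 (Dsc3 to Dsg3), 0.00673 to 0.0409 and 0.00584 to 0.0343 (Dsc2 to Dsc3), and 0.119 to 0.212 and 0.246 to 0.424 (Dsg2 to Dsg3). Exons hold 9659 bases for Dsp and 6436 for Jup, and these counts were not divided by length, so a ratio above 1 does not mean more transcripts. In Lgr5 GL libraries the ratio ran from 0.225 to 1.41 over all time points and was 0.288, 0.225 and 0.499 at 8w pw1. With 3 libraries against 3, an exact two-sided permutation test cannot go below p = 0.1. Dsp (51.8% GC) and Jup (58.8%) differ in GC content as well as in length. With each library's GC trend removed, the log2 changes at 8w pw1 and 1w pw2 were 2.44 and 2.12 for Dsp and -0.39 and -0.64 for Jup. Of the counts of the 10 genes together, Dsp made up 11.6% and Jup 39.0% in Lrig1 GL cells at 0w, and 34.8% and 13.6% at 8w pw1, while the Lgr5 GL shares were 14.5% and 27.0% at 0w and 11.97% and 34.7% at 8w pw1.

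**Figure D3:**
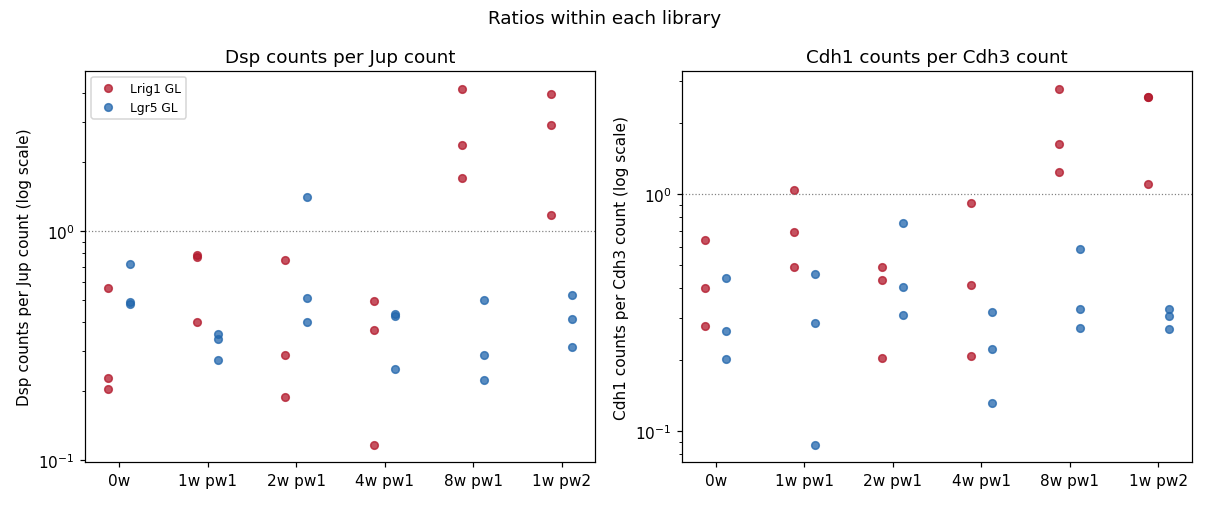
Dsp counts per Jup count (left) and Cdh1 counts per Cdh3 count (right) in each library, on log axes with the dotted line at 1, by time point and population. The 6 Lrig1 GL libraries at 8w pw1 and 1w pw2 lie above 1 in both panels, from 1.17 to 4.18 for Dsp to Jup and from 1.11 to 2.79 for Cdh1 to Cdh3. Counts are not divided by exon length, and each ratio sets a gene whose Lrig1 GL values rose against one whose values fell.

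Pkp1, the plakophilin of upper epidermal desmosomes, was not called in either population. Its Lrig1 GL libraries ran from 296 to 830 CPM and its Lgr5 GL libraries from 187 to 768 CPM over all times, and 0w held both the widest spread and the highest library in each population. At 4w pw1 the Lgr5 GL libraries lay close together at 287, 254 and 257 CPM, with a log2 difference from 0w of -0.91 ± 0.39 (adjusted p = 0.408).

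Among the desmosomal cadherins, Dsc3 was the 1 of 4 called in Lrig1 GL cells. It stood at 649, 775 and 761 CPM at 0w, at 1122, 1190 and 1034 at 1w pw1, at 852, 644 and 967 at 2w pw1, at 864, 606 and 812 at 4w pw1, at 1560, 1135 and 1533 at 8w pw1 and at 1390, 1932 and 1664 at 1w pw2. Each library at 8w pw1, at 1w pw2 and at 1w pw1 lay above the 3 at 0w. Dsc3 rose 2.28-fold at 1w pw2 (log2 1.19 ± 0.23, adjusted p = 0.0233) and passed the adjusted p at 8w pw1 with a smaller change (0.95 ± 0.23, adjusted p = 0.0393). Its adjusted p over the time course was 0.0297, and that call was lost in 9 of the 18 fits that left out 1 library (adjusted p 0.0510 to 0.0829), those without 1w pw1 replicates 1 or 3, 2w pw1 replicate a, 4w pw1 replicate b, 8w pw1 replicates a, b or c, or 1w pw2 replicates 2 or 3. The call at 1w pw2 was lost without 0w replicate 1 (adjusted p = 0.0853), 1w pw2 replicate 2 (0.133) or 1w pw2 replicate 3 (0.0801). With each library's trend on GC content removed, Dsc3 passed at neither time (log2 0.36 at 1w pw2, adjusted p = 0.447, and 0.02 at 8w pw1, adjusted p = 0.981) nor over the time course (adjusted p = 0.417). Dsc3 of Lgr5 GL cells stayed between 365 and 749 CPM in 17 libraries and reached 798 in 1 at 8w pw1, with an adjusted p over the time course of 0.841.

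Dsc2, the desmocollin of wider tissue distribution, had the lowest level per length at 0w and the largest standard errors in Lrig1 GL cells. In Lrig1 GL cells it had 8 to 78 counts per library at 0w (9.75, 31.7 and 5.12 CPM) and 0 counts in 1 library at 4w pw1. It stood at 130, 48.6 and 148 CPM at 1w pw1 and at 31.1, 271 and 145 CPM at 1w pw2, but at 9.10, 8.55 and 52.5 CPM at 8w pw1. The 1w pw1 libraries lay above all 3 at 0w, and 2 of the 3 at 1w pw2 did. The log2 differences were 2.79 ± 1.13 at 1w pw1 (adjusted p = 0.37) and 3.24 ± 1.15 at 1w pw2 (adjusted p = 0.149), and neither passed. DESeq2 called the Lrig1 GL change at 1w pw2. Over the time course of each population, DESeq2 and the likelihood ratio test called Dsc2 and limma-voom did not. Dsc2 of Lgr5 GL cells stood at 2.59, 5.83 and 4.52 CPM at 1w pw2, below all 15 libraries of the other times (6.85 to 58.5 CPM). The share of all genes separated in this way was not counted, and against 0w alone 5.33% lay lower without overlap. The log2 difference was -2.20 ± 0.65 from 0w (adjusted p = 0.627) and -2.90 ± 0.66 from 8w pw1 (adjusted p = 0.99). DESeq2 called the difference from 8w pw1 (0.0999% of all genes).

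Dsg3, the desmoglein of basal cells, stood at 818, 794 and 502 CPM at 0w and at 429, 447 and 594 at 4w pw1 in Lrig1 GL cells, and at 707, 983 and 571 CPM and at 395, 352 and 438 at the same times in Lgr5 GL cells. The Lgr5 GL groups did not overlap there (log2 difference -0.93 ± 0.28, adjusted p = 0.226), while the Lrig1 GL groups did (-0.52 ± 0.26, adjusted p = 0.599). Dsg2, which is low in interfollicular epidermis, stood at 311, 254 and 212 CPM at 8w pw1 against 97.0, 169 and 71.7 at 0w in Lrig1 GL cells, without overlap (1.20 ± 0.61, adjusted p = 0.248). Its Lgr5 GL libraries stood at 26.9, 31.9 and 18.9 CPM at 8w pw1 against 40.2, 56.9 and 51.7 at 0w (-0.94 ± 0.52, adjusted p = 0.902).

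The values of Cdh1 and Cdh3 also ran in opposite directions in Lrig1 GL cells, though edgeR's quasi-likelihood test called neither gene. Cdh1 stood at 129, 417 and 242 CPM at 0w, 749, 408 and 395 at 8w pw1 and 369, 721 and 707 at 1w pw2, with overlap at both later times. Its log2 differences from 0w were 0.98 ± 0.40 (adjusted p = 0.153) and 1.19 ± 0.40 (adjusted p = 0.132). Without 0w replicate 2, Cdh1 was called over the time course (adjusted p = 0.0392). DESeq2 and the likelihood ratio test called Cdh1 over the time course with all libraries (13.1% and 14.0% of all genes). DESeq2 also called it at 1w pw2 (7.28%), while limma-voom called it at neither. Cdh3 stood at 464, 652 and 603 CPM at 0w and, without overlap, at 269, 330 and 243 at 8w pw1 and 333, 281 and 275 at 1w pw2. Its log2 differences were -1.03 ± 0.39 (adjusted p = 0.126) and -0.95 ± 0.39 (adjusted p = 0.201). With each library's GC trend removed, Cdh3 stood at -0.74 and -0.75 and Cdh1 at 1.14 and 1.30, and neither gene passed. The ratio of Cdh1 to Cdh3 counts was 0.278, 0.640 and 0.401 at 0w, 2.79, 1.24 and 1.63 at 8w pw1 and 1.11, 2.56 and 2.57 at 1w pw2, and from 0.0877 to 0.754 over all Lgr5 GL libraries. Among Lgr5 GL libraries Cdh1 ran from 63.6 to 178 CPM over all 18 libraries (adjusted p over the time course 0.989) and Cdh3 from 235 to 725 CPM (0.464).

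Perp stood at 4792, 5880 and 6188 CPM at 0w in Lrig1 GL cells and at 9976, 8129 and 11026 at 8w pw1 and 10529, 11806 and 9837 at 1w pw2, all above 0w. The changes of 0.79 ± 0.21 (adjusted p = 0.0473) and 0.93 ± 0.21 (adjusted p = 0.036) passed the adjusted p but stayed under a log2 of 1, so Perp was not called. Its Lgr5 GL libraries stood at 4304, 4472 and 4743 CPM at 0w, at 1993, 2406 and 1760 at 4w pw1 and at 4934, 6061 and 7117 at 8w pw1. The difference at 4w pw1, -1.13 ± 0.27, had an adjusted p of 0.111, and the time course one of 0.0578. Limma-voom, DESeq2 and the likelihood ratio test called both of these, as did edgeR's quasi-likelihood test once 1w pw1 replicate 1 was left out (adjusted p = 0.0481 at 4w pw1 and 0.0369 over the time course). The time course was also called without 1w pw1 replicate 3 (0.0371) or 2w pw1 replicate b (0.0418).

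**Figure D4:**
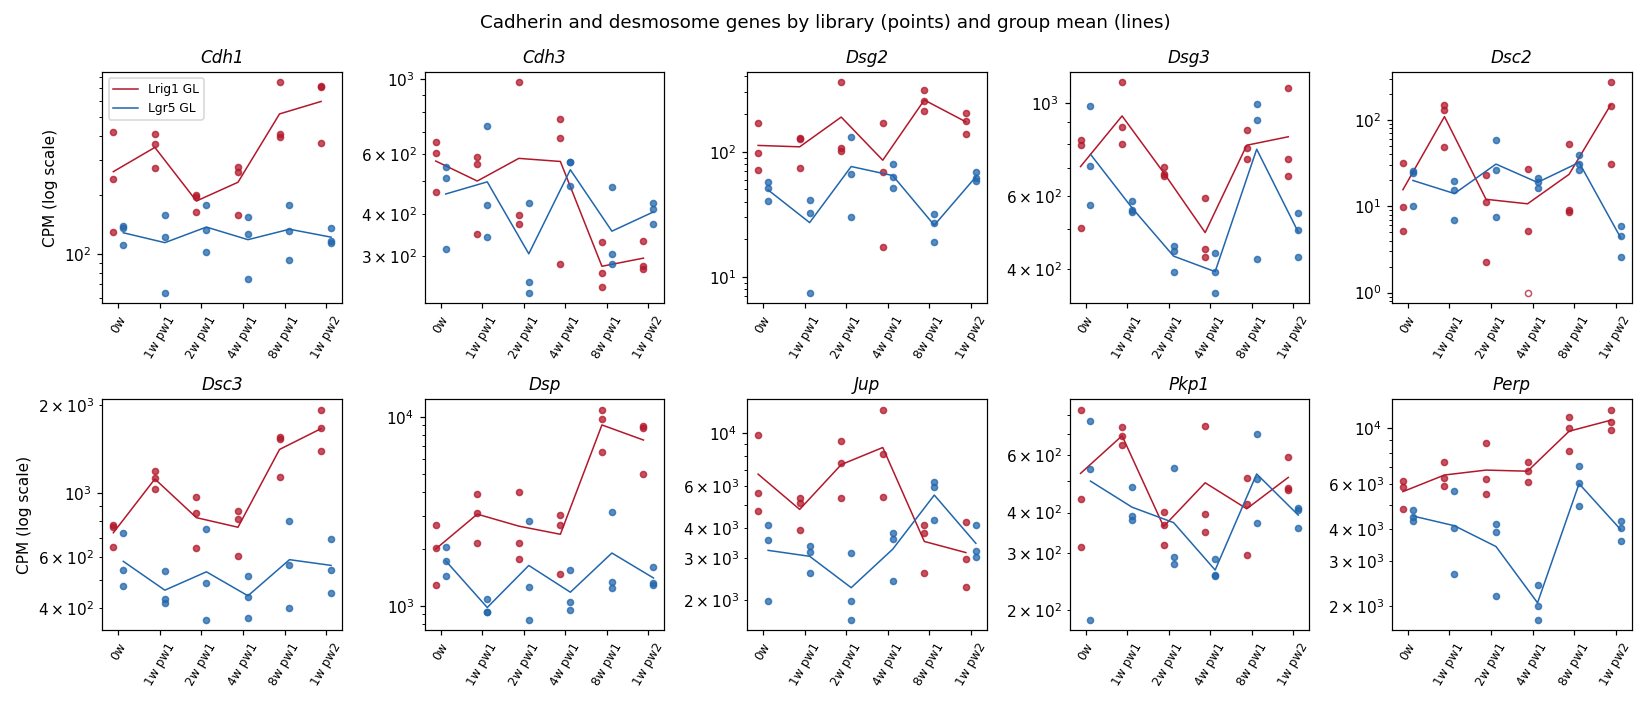
CPM of the 10 genes on log axes in each library (points) with group means (lines) at the 6 time points, Lrig1 GL in red and Lgr5 GL in blue; the library with 0 Dsc2 counts is drawn as an open point at 1. Dsp, Dsc3 and Perp lie highest in Lrig1 GL cells at 8w pw1 and 1w pw2, where Jup and Cdh3 lie lowest on average.

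In Lgr5 GL cells the calls were 0 of 10 at each of the 5 time points, where 1.29%, 0%, 0.155%, 0% and 0% of all genes were called from 1w pw1 to 1w pw2. At an unadjusted p under 0.05 the counts of the set were 1, 1, 3, 1 and 2, where 18.6%, 8.79%, 10.7%, 5.94% and 6.42% of all genes passed. Limma-voom, DESeq2 and the likelihood ratio test each called 1, Perp at 4w pw1 (0.449%, 1.56% and 1.49% of all genes), and 0 at the other times.

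The second wound was compared with the first to ask whether these genes respond differently to it. In Lrig1 GL cells 0 of 10 differed between 1w pw2 and 1w pw1 (0% of all genes), with 3 at an unadjusted p under 0.05 (8.87% of all genes). Those were Dsp (1.30 ± 0.38, adjusted p = 0.368), Perp (0.72 ± 0.20, adjusted p = 0.36) and Dsc3 (0.58 ± 0.23, adjusted p = 0.476), each without overlap between the 3 libraries of 1w pw2 and of 1w pw1. DESeq2 called Dsp and Perp (1.21% of all genes), and the other tools 0. In Lgr5 GL cells the count was 0 (0.266% of all genes) with each tool, with Dsg2 (1.22 ± 0.52, adjusted p = 0.255) and Dsc2 (-1.69 ± 0.65, adjusted p = 0.213) at an unadjusted p under 0.05 (16.8% of all genes). Between 1w pw2 and 8w pw1 the count was 0 in Lrig1 GL (0.00699% of all genes) and 0 in Lgr5 GL cells (0%). At an unadjusted p under 0.05 the counts were 1 (5.72%) and 5 (3.83%), and DESeq2 called Dsc2 in Lgr5 GL cells (0.0999% of all genes). In the fit of both populations, the step from 1w pw1 to 1w pw2 differed between them in 0 of 10 genes with each tool (0.107% of all genes), and Perp had the 1 unadjusted p under 0.05 (13% of all genes did; 0.82 ± 0.33, adjusted p = 0.268).

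The time course as a whole differed between Lrig1 GL and Lgr5 GL cells in 4 of 10 genes, Jup, Dsc2, Dsp and Perp, where it did in 4.52% of 13980 genes, and in 7 of 10 at an unadjusted p under 0.05 (23.1% of all genes). The adjusted p was 0.0142 for Jup, 0.0208 for Dsc2, 0.0434 for Dsp and 0.0474 for Perp. The log2 change of Dsp from 0w was larger in Lrig1 GL cells by 2.09 at 8w pw1 and 2.23 at 1w pw2, and that of Jup differed there by -1.68 and -1.18. That of Dsc2 was larger by 3.26 at 1w pw1 and 5.47 at 1w pw2, and that of Perp by 1.37 at 4w pw1 and 1.13 at 1w pw2. Jup passed in all 36 fits without 1 library, whereas Dsc2 failed without Lrig1 GL 1w pw2 replicate 2 (adjusted p = 0.0511) or Lgr5 GL 1w pw2 replicate 1 (0.0514). Cdh1 passed without Lrig1 GL 0w replicate 2 (0.0491). Dsp failed in 23 of these 36 fits (adjusted p at most 0.0747). It passed without Lrig1 GL 0w replicate 2, 1w pw1 replicate 3, 2w pw1 replicate c, 4w pw1 replicates a or c, 8w pw1 replicate b or 1w pw2 replicate 1, or without Lgr5 GL 0w replicate c, 2w pw1 replicates a, b or c, 4w pw1 replicate a or 8w pw1 replicate c. Perp failed in 33 (at most 0.105) and passed without Lrig1 GL 2w pw1 replicate c (0.0357), Lgr5 GL 1w pw1 replicate 1 (0.0253) or Lgr5 GL 2w pw1 replicate b (0.0338). With the GC trend of each library removed, Dsc2 (0.0419) and Dsp (0.0420) passed, and Jup (0.0608) and Perp (0.0627) did not. With GC and length trends removed Jup passed (0.0451), and Dsc2 (0.0588), Dsp (0.0735) and Perp (0.172) did not. With surrogate variables 0 of 10 passed.

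Over all genes, the changes of Lrig1 GL cells varied with GC content and length. When genes were split into 5 equal bins from low to high GC content, the median log2 change at 8w pw1 was 1.11, 0.48, -0.08, -0.56 and -0.76, and at 1w pw2 it was 0.89, 0.36, -0.08, -0.45 and -0.67. Dsc3 (42.4% GC) and Dsc2 (42.5%) are in the lowest bin, Jup (58.8%) is in the highest, and Dsp (51.8%), Cdh3 (52.1%) and Pkp1 (53.8%) are in the one below it. Among 5 bins by length, the longest, with exons over 7.06 kb, which holds Dsp and Dsg2, had a median of 0.53 at 8w pw1. With the GC trend of each library removed, Dsp was still called, with 2.44 at 8w pw1 (adjusted p = 0.0199) and 2.12 at 1w pw2 (0.0384), and with GC and length trends removed, with 2.22 (0.0267) and 2.07 (0.0292). Dsc3, which lost its calls with the GC trend removed, stood at -0.06 at 8w pw1 (adjusted p = 0.924) and 0.34 at 1w pw2 (0.453) with both removed. With the GC trend removed Jup went to -0.39 and -0.64 and Perp to 0.60 (adjusted p = 0.137) and 0.72 (0.108), so that Perp no longer passed. The part of the mitochondrial share in these results was not tested beyond leaving those genes out of the library totals, which gave 2.15 for Dsp at 8w pw1.

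**Figure D5:**
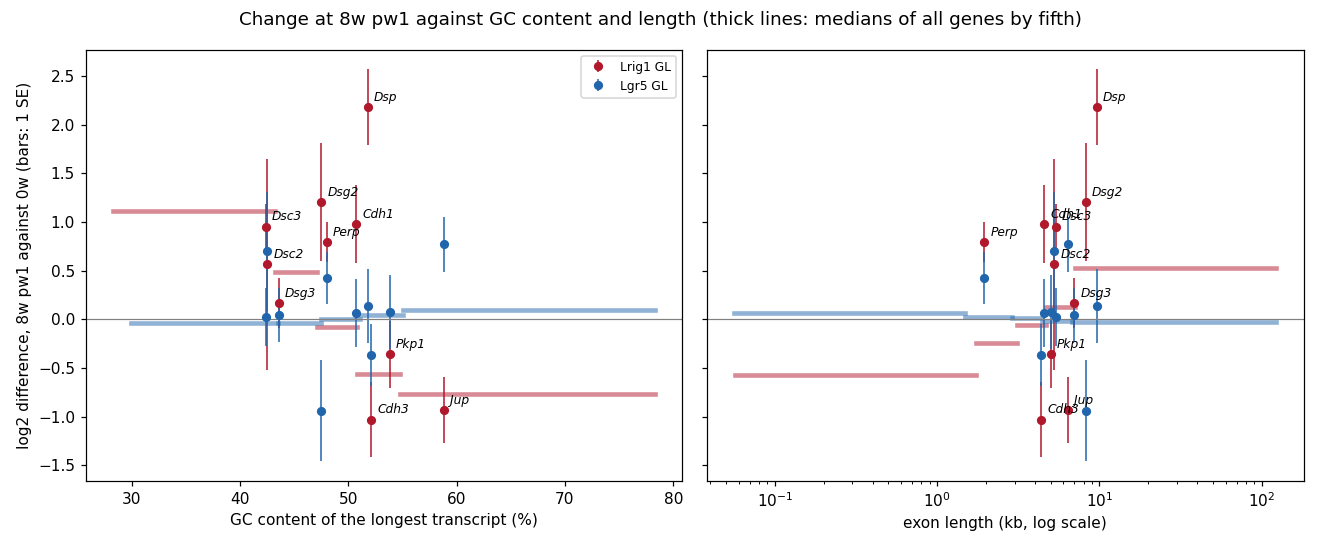
Log2 change at 8w pw1 against 0w of the 10 genes (points, bars 1 SE; names beside the Lrig1 GL points) by transcript GC content in percent (left) and exon length in kb on a log axis (right); thick lines are medians of all genes in 5 equal bins. Lrig1 GL medians run from 1.11 to -0.76 with GC content and from -0.57 to 0.53 with length, Lgr5 GL medians stay near 0, and Dsp lies at 2.18.

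Groups of 3 libraries that do not overlap were counted for the whole set. Against 0w in Lrig1 GL cells, 2 of 10 genes lay higher without overlap at 1w pw1 (Dsc2 and Dsc3; 7.51% of all genes) and 0 lower (6.4%). None did at 2w pw1 (6.1% higher and 5.25% lower of all genes) or 4w pw1 (5.5% and 5.14%). At 8w pw1 there were 4 higher (Dsg2, Dsc3, Dsp and Perp; 14.8%) and 2 lower (Cdh3 and Jup; 12.8%), and at 1w pw2 there were 3 higher (Dsc3, Dsp and Perp; 13.9%) and 2 lower (Cdh3 and Jup; 10.4%). From 1w pw1 to 1w pw2 there were 4 higher (Dsg2, Dsc3, Dsp and Perp; 11.2%) and 2 lower (Cdh3 and Pkp1; 8.81%). For Lgr5 GL cells against 0w the counts higher and lower were 0 and 1 at 1w pw1 (9.98% and 9.8% of all genes), 0 and 2 at 2w pw1 (7.44% and 5.73%), 0 and 2 at 4w pw1 (6.62% and 7.79%), 3 and 1 at 8w pw1 (6.49% and 4.7%), and 1 and 2 at 1w pw2 (6.95% and 5.33%). From 1w pw1 to 1w pw2 they were 2 and 2 (13.7% and 11%).

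Marker sums differed between these groups as well, and their part in the results was not tested. In Lrig1 GL cells the wound keratins Krt6a, Krt6b, Krt16 and Krt17 (4 of 4 detected) summed to 2712 to 4970 CPM at 0w, 1144 to 1652 at 8w pw1 and 3311 to 5531 at 1w pw2. Lower follicle markers (6 of 6 detected) summed to 5176 to 9156 CPM at 0w, 2160 to 3229 at 8w pw1 and 643 to 1772 at 1w pw2. Upper follicle markers (5 of 5 detected) summed to 4990 to 6671 CPM, 4285 to 5903 and 3240 to 3731 at these times, and basal markers (6 of 6 detected) to 14753 to 17357, 10431 to 16770 and 16248 to 17520. Suprabasal markers (6 of 6 detected) overlapped, with 4692 to 19967 CPM at 0w, 7601 to 12343 at 8w pw1 and 11352 to 11810 at 1w pw2. In bulk samples, fewer cells of a type and less RNA per cell cannot be told apart.

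The other junction genes are given by list, to be read against the 1.63% of all Lrig1 GL genes and 1.13% of all Lgr5 GL genes called, and against 20.5% and 16.9% at an unadjusted p under 0.05. Across the Lrig1 GL time course the calls were 0 of 9 adherens junction partners (catenins, vinculin, afadin and nectins), 0 of 10 other desmosome genes, 0 of 2 other cadherins, 0 of 1 repressor of Cdh1 and 0 of 6 tight junction genes tested. By edgeR's p before adjustment, 2, 3, 1, 0 and 2 of these passed 0.05. For Lgr5 GL cells the calls were 0 of 9, 1 of 11, 0 of 4, 0 of 4 and 0 of 6, and before adjustment 3, 5, 2, 0 and 1 passed. The called gene was Ppl, which encodes periplakin, a plakin of the cell envelope and desmosome. Its Lgr5 GL libraries stood at 93.5, 100 and 49.3 CPM at 0w and at 16.0, 9.62 and 13.2 at 1w pw1, a fall of the log2 value by 2.63 (-2.63 ± 0.40, adjusted p = 0.0136), and in Lrig1 GL cells the difference was -0.63 ± 0.40 (adjusted p = 0.6). The time course of Ppl did not pass the test of a difference between populations (adjusted p = 0.0572).

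Across the 18 libraries of a population, which share group and depth, the 45 pairs of the set had a median Pearson's r of log2 CPM of 0.248 for Lrig1 GL and 0.221 for Lgr5 GL. Among Lrig1 GL libraries 13 pairs had r over 0.5 and 11 had r below -0.5. The most positive was Dsc3 with Dsp (r = 0.92) and the most negative Dsc3 with Jup (r = -0.87). These r were taken with no GC trend removed, and Dsc3 (42.4% GC) and Jup (58.8%) are in the lowest and the highest GC bin. Among Lgr5 GL libraries 13 pairs had r over 0.5 and 0 below -0.5. The share of all gene pairs past these limits was not taken in either population, so the counts have nothing to be read against. Of 10370 other genes, the 5 with the pattern most like the mean of the set in both populations, over 18 libraries each, were Cast (mean r = 0.73), Cwh43 (0.71), Rbl2 (0.69), Klf3 (0.69) and Naa30 (0.69).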

How the data were processed

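The authors trimmed reads of full-length mini-bulk RNA-seq with Trim Galore 0.5.0, used HISAT2 for alignment to mm10/GRCm38 and featureCounts for exon counts per gene name (annotation: GENCODE M20), and deposited the raw counts as 1 table per population. For 15 libraries the replicate numbers of the tables are those of the labels, and for 21 they are not, so these are called replicates a, b and c. Same-numbered libraries did not deviate together (mean r 0.00369 in Lrig1 GL, -0.0155 in Lgr5 GL cells), and they were not paired.

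Whole tables were fitted with edgeR 4.0.16 under R 4.3.3. The steps were filterByExpr with a minimum of 10 counts, TMM scaling, a prior count of 0.125 and quasi-likelihood F-tests with Benjamini-Hochberg adjustment over all genes tested. Contrasts against 0w needed an adjusted p under 0.05 and a log2 change above 1 in size, and the comparisons of 1w pw2 with 1w pw1 or 8w pw1 and those between populations the adjusted p alone. Both tables were fitted together for the latter. The fits were also run on simulated counts with known changes, and the outcome is not given here or used as support. CPM is scaled within each table. GC content and length came from GENCODE release M21. Alternatives used DESeq2 1.42.0, limma 3.58.1 and sva 3.50.0.

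The 10 genes and all lists were chosen with earlier results of these data known. All 10 are named. Genes of other lists are named only where called, and the 5 most similar genes by mean r, among genes with at least 10 counts per library on average in both tables. Sequences are RefSeq's, and those for 8 of the 10 genes are not given here. The study's other assays were not analysed here.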

Additional observations from a re-analysis of the deposited data

Results flagged for a closer look

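The time course after wounding differed between the populations in 4 of the 10 genes by the test of the difference itself, where it did in 4.52% of all genes. Limma-voom called 3 of the 10 (6.94% of all genes) and did not call Dsc2. In edgeR's quasi-likelihood test the adjusted p was 0.0208 for Dsc2, 0.0434 for Dsp, 0.0142 for Jup and 0.0474 for Perp. Of the 36 fits without 1 library, Dsp failed in 23 and Perp in 33. Jup (0.0608) and Perp (0.0627) failed with the GC trend removed, Dsc2 (0.0588), Dsp (0.0735) and Perp (0.172) with GC and length trends removed, and all of them with surrogate variables. Dsc2 was at 48.6 to 148 CPM at 1w pw1 and 31.1 to 271 CPM at 1w pw2 in Lrig1 GL cells, and at 6.85 to 19.8 and 2.59 to 5.83 CPM at these times in Lgr5 GL cells. Population and count table cannot be told apart in these differences.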

How the results depend on the processing

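Among the log2 changes of the set with an adjusted p under 0.05, that of Dsc3 at 8w pw1 (0.95) turned to -0.06 with GC and length trends removed, and those of Dsp, Perp and of Dsc3 at 1w pw2 kept their sign under the alternatives run. Across the Lrig1 GL time course (2 called; 1.63% of all genes), the likelihood ratio test gave 5 (14.0%) and DESeq2 5 (13.1%). GC trend removal gave 1, GC and length removal 1, surrogate variables 0 with 5 or with 2 variables, and leaving out 8w pw1 0. At 8w pw1 (1), DESeq2 gave 2 (11.1% of all genes), its size factors in edgeR 2, the adjusted p alone 3 and both surrogate variable designs 0. At 1w pw2 against 0w (2), DESeq2 gave 5 (7.28% of all genes), GC removal 1, GC and length removal 1 and both surrogate variable designs 0. Between 1w pw2 and 1w pw1 in Lrig1 GL cells (0), DESeq2 gave 2 (1.21% of all genes). Across the Lgr5 GL time course (0), the likelihood ratio test and DESeq2 each gave 2, and limma-voom, leaving out Gm12415, GC removal and GC and length removal 1 each. At 4w pw1 in Lgr5 GL cells (0), the likelihood ratio test, DESeq2 and limma-voom each gave 1 (1.49%, 1.56% and 0.449% of all genes). For 1w pw2 against 8w pw1 (0) DESeq2 gave 1 (0.0999%). For the difference between time courses (4; 4.52% of all genes), DESeq2 gave 7 (14.4%), no filter on low counts 2, GC removal 2, GC and length removal 1 and both surrogate variable designs 0. Between populations at 0w (0), GC removal and GC and length removal gave 1 each. Where not stated in the report, the cause was not tested.

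With 1 library left out the counts ran from 1 to 3 over the Lrig1 GL time course, 0 to 1 at 8w pw1, 0 to 2 at 1w pw2, 0 to 1 over the Lgr5 GL time course, 0 to 1 at its 4w pw1 and 1 to 4 for the difference between time courses, and were 0 to 0 elsewhere.

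The replicate number as a block could be fitted only among the time points with numbers in the tables. With the block 0 genes were called at 1w pw2 in Lrig1 GL cells (Dsp 1.93, adjusted p = 0.0902), and with the same libraries without it 1, and the block changed no other call. Each of 5 alternatives was added after seeing the data: GC with length, mitochondrial genes left out, 8w pw1 left out, the adjusted p alone and the numbered libraries alone. Dsc2 had few counts, 0 to 98 in Lrig1 GL libraries at 0w, 4w pw1 and 8w pw1, and 66, 725 and 220 at 1w pw2. The part of depth in its spread was not tested.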
